A study of Homo sapiens with 10 samples.

Results

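The genes described here are 9 genes for enzymes of the tricarboxylic acid cycle and cytosolic counterparts, CS, IDH1, IDH2, IDH3A, OGDH, SUCLG1, FH, MDH1 and MDH2. IDH1 and MDH1 are the cytosolic counterparts. Rows were matched to these names by symbol, and each symbol has 1 row among the 22626 rows of the count table. ARPE-19, an established cell line of human retinal pigment epithelium (RPE), was cultured for 48 h in control medium, which held 5.5 mM glucose and 32 mM mannitol (n = 5), or in high glucose (HG) medium, which held 37.5 mM glucose (n = 5). The line was kept in DMEM, to which fetal bovine serum and antibiotics were added. Mannitol balances the osmotic load of the glucose and is stated for the control medium only, so effects of glucose and of mannitol cannot be told apart. Control libraries carry replicate numbers 1 to 5, and HG libraries are named by their column (HG_1 to HG_5), since the labels give letters instead.

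The tricarboxylic acid cycle oxidizes acetyl-CoA in the mitochondrial matrix and passes the electrons to the respiratory chain. Citrate synthase joins acetyl-CoA to oxaloacetate, and after citrate is rearranged to isocitrate, isocitrate dehydrogenase and the 2-oxoglutarate dehydrogenase complex release carbon dioxide in turn. Succinyl-CoA ligase, succinate dehydrogenase, fumarase and malate dehydrogenase then restore oxaloacetate. Some steps have a second enzyme in the cytosol, which serves NADPH supply or the transfer of reducing equivalents, and the RPE is known as a tissue that relies on mitochondrial oxidation.

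Total counts per library were between 32448991 and 45864176. The labels were checked with TXNIP, a gene that glucose induces, which averaged 0.978 ± 0.224 CPM (counts scaled to a common library size by TMM) under control medium and 8.72 ± 2.76 under HG (SD, n = 5 each, adjusted p = 5.55e-05 from edgeR). RPE identity was partial. OTX2 and MITF held at least 1691 counts in every library, while TTR was at 0 in all 10 libraries and RPE65 in 9. Of 13 RPE markers, 9 could be tested, of which KRT8, KRT18 and PMEL (33.3%, against 15.4% of all rows tested) were lower in the HG group and 0 were higher. The summed level of the 13 markers was between 2832 and 3592 CPM in the control group and between 1797 and 2470 in the HG group. KRT8 and KRT18, keratins of simple epithelia, made up most of this sum in every library, and BEST1 was at 264 and 551.5 CPM in control replicates 1 and 4 but at most 7.79 in the other 8 libraries. The part of this shift in the results below was not tested. Of 7 markers of other cells, CDH5 was at 0 throughout, and their summed level was at most 1.46 CPM in any library. HG_1 and control replicate 2 stood apart from the other 8 libraries. The deviation of log2 CPM from the mean of the 10 libraries was regressed on the GC content of the transcript, which makes the slopes sum to 0. Per 10 percentage points of GC, the slopes of these libraries were 0.188 and 0.170, and the others lay between -0.0916 and -0.00519.

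Of the 9 enzyme genes, 4 rose in high glucose and 0 fell. IDH1, the cytosolic NADP-dependent isocitrate dehydrogenase, rose 1.54-fold, MDH1, the cytosolic malate dehydrogenase, 1.29-fold, IDH3A, the catalytic subunit of the mitochondrial NAD-dependent isocitrate dehydrogenase, 1.24-fold, and CS, citrate synthase, 1.2-fold. OGDH, SUCLG1, MDH2, IDH2 and FH did not pass the test. The share of 44.4% called compares with 15.4% of the 14936 genes and loci tested, of which 7.62% were higher and 7.8% lower. The HG and control libraries did not overlap in 5 of the 9 (OGDH being the fifth), against 13.6% of all tested. The median log2 fold change was 0.18 over the 9 genes, against 0.00132 over all tested. All 9 passed the filter on low counts. Calls come from the quasi-likelihood test of edgeR, adjusted by the Benjamini-Hochberg method over every row tested. In bulk RNA, a change within each cell and a change in the number of cells that express a gene cannot be told apart.

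**Figure D1:**
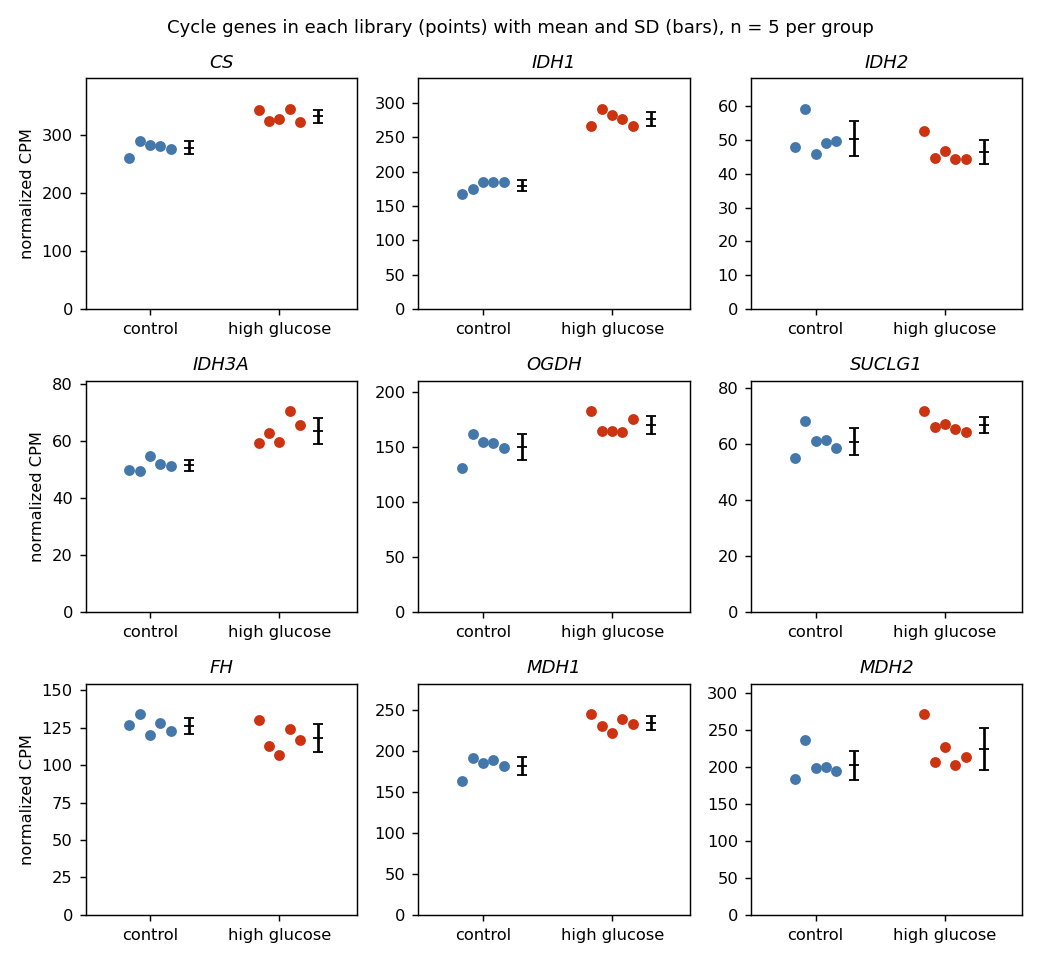
Normalized CPM (y axis, from 0) of the 9 enzyme genes in each of the 5 control (blue) and 5 HG (red) libraries, with mean and SD as bars. IDH1 lies between 167.9 and 185.4 in the control group and between 266.1 and 291.9 in the HG group, while the groups overlap for IDH2, SUCLG1, FH and MDH2.

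The stretches of genome upstream of 2 of the genes are shown first, IDH1 because its change was the largest of the 9, and MDH2 because it was the one gene with a motif match. RefSeq windows from 250 bases before to 50 bases after a transcription start were found for 8 of the 9 genes (10 windows, none for OGDH). Both strands were searched for TCACNCCAC (bound by SREBP, the regulator of sterol synthesis), TTGCATCA (the ATF4 element), CACGTG (the E-box), CCGGAAG (bound by GABP) and GCGCATGCG (the core of the NRF1 site). No match overlapped another. Only CCGGAAG was found, in MDH2 alone, while 10.3% of 35116 promoters of this length hold it. The other motifs are in 1.13%, 0.866%, 7.26% and 1.92% of promoters in the order given. The bases upstream of each start are given 5′ to 3′ on the strand of the gene (GRCh38.p14), with matches in capitals. For IDH1 the more upstream of 2 RefSeq starts was taken, at chr2:208255072-208255321 on the minus strand, and for MDH2 the stretch is chr7:76047856-76048105 on the plus strand.
IDH1: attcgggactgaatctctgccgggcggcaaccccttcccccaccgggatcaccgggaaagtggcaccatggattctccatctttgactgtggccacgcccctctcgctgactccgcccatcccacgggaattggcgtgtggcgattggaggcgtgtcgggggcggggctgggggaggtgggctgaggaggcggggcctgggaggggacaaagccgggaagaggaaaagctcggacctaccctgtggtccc
MDH2: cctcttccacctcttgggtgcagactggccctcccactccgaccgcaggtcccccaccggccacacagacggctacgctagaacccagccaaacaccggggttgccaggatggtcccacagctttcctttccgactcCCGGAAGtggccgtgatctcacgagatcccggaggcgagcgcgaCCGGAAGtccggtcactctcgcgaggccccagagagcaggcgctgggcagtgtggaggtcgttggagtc

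The MDH2 matches begin 113 and 69 bases before the start, both on the plus strand of the gene. For the 7 other genes with a window, the absence of these letters concerns this window alone. The windows of IDH1, IDH2, IDH3A, MDH1 and SUCLG1 lie inside the annotated gene, not at its outer end. For IDH2 the window is at 90100572 to 90100871, while this minus-strand gene reaches to 90102504.

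The entry step was followed through CS (ENSG00000062485, chromosome 12, 56271699 to 56300392, minus strand, GRCh38), which condenses acetyl-CoA with oxaloacetate. CS was at 260.9, 291.0, 283.8, 281.0 and 276.4 CPM in control replicates 1 to 5 and at 344.2, 325.0, 328.6, 346.4 and 322.4 in HG_1 to HG_5. Every HG library lay above every control library, and the gap between the groups was wider than the range of either. The means were 278.6 ± 11.2 and 333.3 ± 11.2 CPM (SD, n = 5 each), and edgeR estimated a log2 difference of 0.26 with a standard error (SE) of 0.0416 (adjusted p = 0.00207). CS overlaps a protein-coding gene on the same strand, AC073896.1. Overlapping windows of 100 bases were taken at every position of its longest coding transcript, and other genes' transcripts hold 7.6% of them. AC073896.1 averaged 12.4 CPM under control medium and 14.0 under HG.

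Isocitrate dehydrogenase was examined next, since its 3 forms differ in place and cofactor. IDH1 (ENSG00000138413, chromosome 2, 208236227 to 208266074, minus strand) makes NADPH in the cytosol and in peroxisomes. It was at 167.9, 174.2, 185.4, 185.2 and 185.1 CPM in control replicates 1 to 5 and at 266.1, 291.9, 281.8, 276.3 and 266.8 in HG_1 to HG_5. The lowest HG library, at 266.1 CPM, lay well above the highest control library, at 185.4. On the log2 scale IDH1 rose by 0.62 (SE 0.0447, 95% interval 0.52 to 0.72, adjusted p = 2.86e-05 from edgeR), which ranked 500 among all 14936 genes and loci when ordered from the largest rise. An antisense gene, IDH1-AS1, overlaps IDH1 and has no row in the table.

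IDH2 (ENSG00000182054, chromosome 15, 90083045 to 90102504, minus strand) is the NADP-dependent enzyme of the mitochondrial matrix. It was at 47.9, 59.2, 45.95, 49.1 and 49.7 CPM in control replicates 1 to 5 and at 52.5, 44.5, 46.8, 44.4 and 44.2 in HG_1 to HG_5. The groups overlapped, and the highest library of each was one of the pair that stood apart. For IDH2 the log2 fold change was -0.12 (95% interval -0.29 to 0.05, adjusted p = 0.375 from edgeR), so a change of either sign within that interval was not resolved. Without control replicate 2 it was -0.05 (adjusted p = 0.639 from edgeR).

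IDH3A (ENSG00000166411, chromosome 15, 78131498 to 78171949, plus strand) belongs to the NAD-dependent enzyme of the cycle proper. Control replicates 1 to 5 were at 49.9, 49.6, 54.8, 51.9 and 51.5 CPM, and HG_1 to HG_5 at 59.6, 63.0, 59.8, 70.5 and 65.8. All HG libraries were higher, and the rise was 0.31 in log2 units (SE 0.0573, adjusted p = 0.00476 from edgeR). ACSBG1 overlaps it on the other strand and holds 62.3% of its windows. ACSBG1 held between 7 and 32 counts per library, against 1646 to 2681 for IDH3A.

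The other 2 subunits of this enzyme did not pass the test. IDH3B, a subunit that is needed with IDH3A for activity, averaged 85.9 ± 5.99 CPM under control medium and 93.2 ± 8.67 under HG, and IDH3G, the regulatory subunit, at 45.3 ± 5.97 and 46.2 ± 6.87 (SD, n = 5 each). Their log2 fold changes were 0.12 (95% interval -0.04 to 0.27) and 0.03 (95% interval -0.22 to 0.27). The log2 ratio of IDH3A to IDH3B within a library was between -0.94 and -0.66 in the control group and between -0.84 and -0.39 in the HG group, so the groups overlapped. This ratio was chosen after the values were seen and was not tested.

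The 2-oxoglutarate dehydrogenase step was represented by OGDH (ENSG00000105953, chromosome 7, 44606572 to 44709066, plus strand), the first component of the complex. OGDH was at 131.4, 162.4, 155.1, 154.0 and 149.1 CPM in control replicates 1 to 5 and at 182.7, 164.5, 164.5, 163.9 and 175.8 in HG_1 to HG_5. The groups did not overlap, but the gap between 162.4 and 163.9 CPM was small beside the range within each group. Its log2 fold change of 0.18 did not pass (95% interval 0.05 to 0.31, adjusted p = 0.0705 from edgeR). It passed in 6 of the 24 alternative analyses, among them those without control replicate 2 (0.21, adjusted p = 0.0385 from edgeR) and with the GC and length trend of each library removed (0.22, adjusted p = 0.00333 from edgeR).

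SUCLG1 (ENSG00000163541, chromosome 2, 84423523 to 84460045, minus strand) is the alpha subunit shared by both forms of succinyl-CoA ligase. It was at 55.1, 68.3, 60.9, 61.4 and 58.6 CPM in control replicates 1 to 5 and at 71.7, 66.2, 67.3, 65.2 and 64.3 in HG_1 to HG_5. Control replicate 2 lay within the HG group and the other 4 control libraries below it. With all libraries the log2 fold change was 0.14 (95% interval 0.00 to 0.27, adjusted p = 0.165 from edgeR). Without control replicate 2 it was 0.18 (adjusted p = 0.0346 from edgeR), and with the GC and length trend removed 0.08 (adjusted p = 0.137 from edgeR).

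FH (ENSG00000091483, chromosome 1, 241497603 to 241519761, minus strand) encodes fumarase, which serves in both the matrix and the cytosol. It was at 127.1, 134.0, 120.2, 127.9 and 122.9 CPM in control replicates 1 to 5 and at 130.4, 112.8, 106.6, 124.5 and 116.6 in HG_1 to HG_5. HG_2, HG_3 and HG_5 lay below the whole control group, and HG_1 and HG_4 within it. FH had a log2 fold change of -0.10 (95% interval -0.23 to 0.03, adjusted p = 0.322 from edgeR). Without HG_3 it was -0.06 (adjusted p = 0.572 from edgeR). FH and IDH2 were the genes of the 9 with a negative value, and both passed as lower once the GC and length trend of each library was removed (-0.16 and -0.12, adjusted p = 0.0480 and 0.0417 from edgeR).

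Malate dehydrogenase closes the cycle and, with its cytosolic form, carries the malate-aspartate shuttle. MDH1 (ENSG00000014641, chromosome 2, 63588609 to 63607197, plus strand) was at 163.0, 190.6, 184.5, 189.1 and 181.4 CPM in control replicates 1 to 5 and at 244.2, 230.4, 221.7, 238.5 and 232.6 in HG_1 to HG_5. The groups were separate on this scale, and MDH1 rose by 0.36 in log2 units (SE 0.05, adjusted p = 0.000948 from edgeR). In the deposited FPKM values, which are per transcript length, the change was smaller (1.18-fold), and control replicate 4 at 134.9 FPKM lay above HG_3 at 132.2. From lowest to highest library, the ratio of CPM to FPKM of MDH1 spanned 19.05% of its mean, against 4.75% to 10.3% for the other 8 genes. MDH1 shares 5.9% of its windows with WDPCP, which overlaps it on the other strand and held between 111 and 253 counts.

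MDH2 (ENSG00000146701, chromosome 7, 76048051 to 76067508, plus strand), the matrix enzyme, was at 184.0, 235.6, 197.7, 199.3 and 194.8 CPM in control replicates 1 to 5 and at 270.8, 206.2, 226.5, 202.3 and 213.8 in HG_1 to HG_5. Its highest value in each group came from the pair of libraries that stood apart. MDH2 had a log2 fold change of 0.15 (95% interval -0.05 to 0.34, adjusted p = 0.327 from edgeR), and without this pair 0.13 (adjusted p = 0.0460 from edgeR). Without HG_1 alone it was 0.07 and without control replicate 2 alone 0.21 (adjusted p = 0.518 and 0.114 from edgeR).

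**Figure D2:**
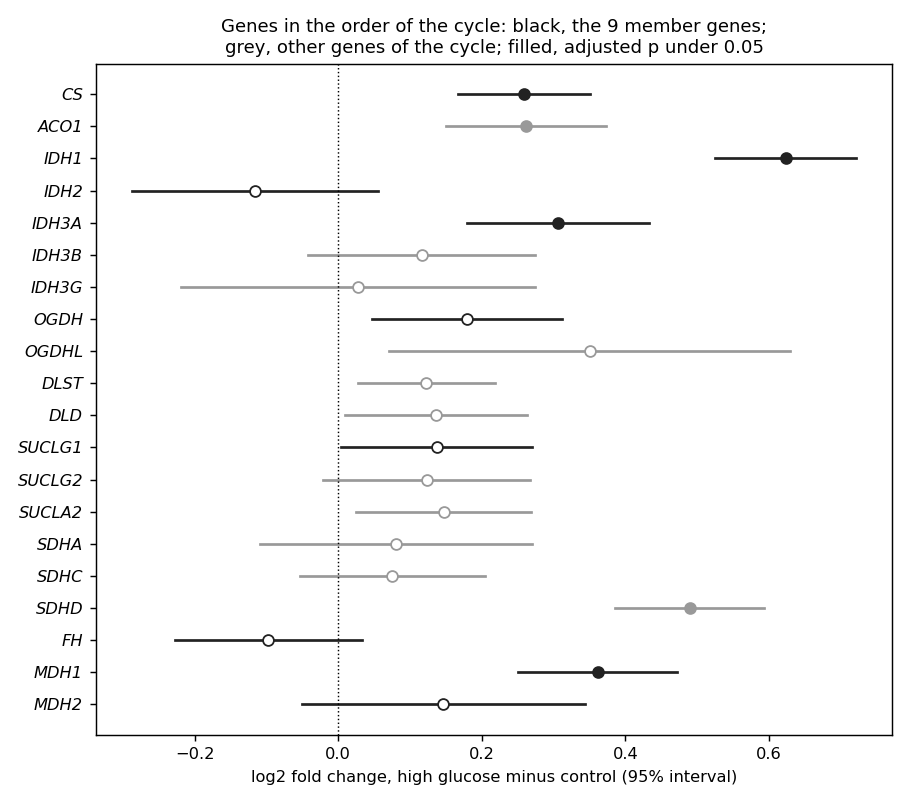
Log2 fold change of high glucose against control (x axis) with its 95% interval, for genes in the order of the cycle. The 9 enzyme genes are black, other genes of the cycle grey, and filled points passed an adjusted p of 0.05 (edgeR). SDHB is left out of the plot because its interval runs from -1.38 to 2.07. IDH1 stands at 0.62, and IDH2 and FH lie left of 0 with intervals that cross it.

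To compare the cytosolic and the mitochondrial enzyme of a step free of library scaling, the log2 ratio of their counts was taken within each library and compared by a two-sided exact permutation test of the group labels. In all, 3 such ratios were tested and p was adjusted over the 3, of which 2 are reported. The IDH1 to IDH2 ratio was 1.81, 1.56, 2.01, 1.92 and 1.90 in control replicates 1 to 5 and 2.34, 2.71, 2.59, 2.64 and 2.59 in HG_1 to HG_5. All 5 HG libraries lay above all control libraries, by 0.74 on average (exact permutation p = 0.00794, the smallest this design allows, adjusted p = 0.0238). The difference between the responses of IDH1 and IDH2 was thus larger than the spread between libraries.

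The MDH1 to MDH2 ratio changed in the same direction, from -0.15 ± 0.0938 to 0.07 ± 0.156 (SD, n = 5 each), but HG_1 at -0.15 lay among the controls. The difference of 0.22 did not pass after adjustment (exact permutation p = 0.0476, adjusted p = 0.0714). Without HG_1 it was 0.27, and from the deposited FPKM 0.096 (exact permutation tests, adjusted p = 0.0238 and 0.452).

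**Figure D3:**
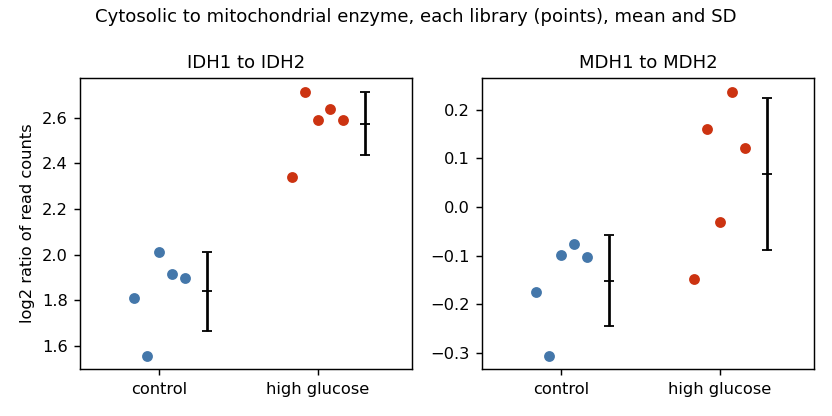
Log2 ratio of the counts of the cytosolic to the mitochondrial enzyme (y axis, scaled separately for each panel) in each control (blue) and HG (red) library, with mean and SD as bars. The groups are separate for IDH1 to IDH2 and overlap for MDH1 to MDH2, and HG_1 is the lowest HG point in each panel.

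Levels were compared between genes on the FPKM scale, which is divided by transcript length. In the control group the order was MDH1 (118.5 ± 11.2), CS (89.9 ± 3.00), MDH2 (88.2 ± 8.90), IDH1 (71.7 ± 3.83), FH (64.8 ± 2.14), SUCLG1 (44.2 ± 3.05), OGDH (34.1 ± 2.78), IDH2 (17.7 ± 1.83) and IDH3A (12.3 ± 0.915 FPKM, SD, n = 5 for each). CS and MDH2, and IDH1 and FH, overlapped in range and were not separated, while every other pair of neighbours was. In the HG group IDH1, at 111.1 ± 6.36 FPKM, stood second in this order and was not separated from CS at 108.3 ± 3.49. IDH3A at 15.5 ± 1.21 was then not separated from IDH2 at 16.6 ± 0.923 (SD, n = 5 each). The sum over the 9 genes was between 511.4 and 570.0 FPKM in the control group and between 627.1 and 652.8 in the HG group, which did not overlap. The level of the first gene of the order was 9.61 times that of the last in the control group and 9.03 times in the HG group.

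**Figure D4:**
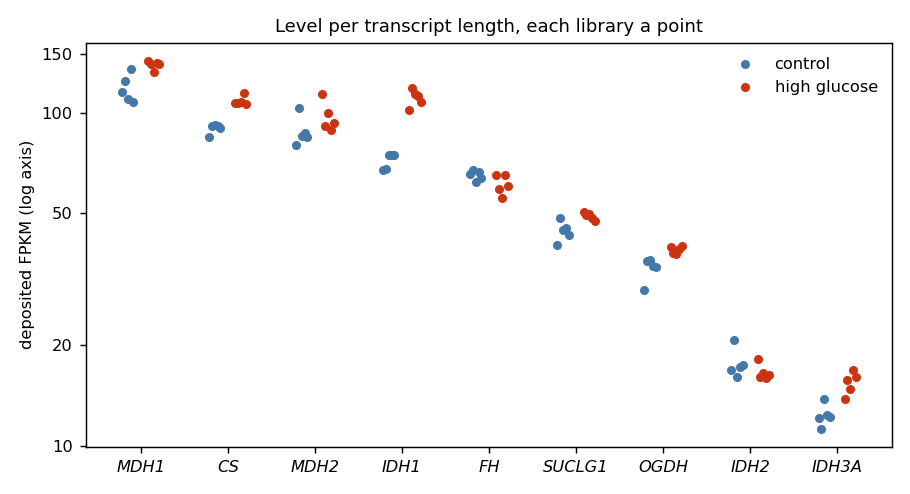
Deposited FPKM values (log y axis) of the 9 enzyme genes, ordered by their mean in the control group, with each library as a point (blue control, red HG). IDH1 moves from about 71.7 to 111.1 FPKM, and the groups, which are separate in CPM for MDH1 and IDH3A, overlap in single libraries on this scale.

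Among 12 further genes of the cycle, 2 rose (16.7%) and 0 fell, and the median log2 fold change was 0.13, with all 12 values above 0. That share is near the 15.4% called among all rows tested, and the count moved with the settings, as did the share of all rows called. It was 6 with 1 surrogate variable (33.0% of all rows tested), 5 with the GC and length correction (29.3%) and 1 with limma on genes of mean FPKM at least 1 (15.9%). ACO1, the cytosolic aconitase, which doubles as an iron sensor, rose by 0.26 on the log2 scale (SE 0.0505, adjusted p = 0.00575 from edgeR). In the deposited FPKM of ACO1, HG_1 at 27.2 lay below all control libraries (31.9 to 46.9), and the other HG libraries lay above them (54.0 to 57.1). SDHD, a membrane anchor of succinate dehydrogenase, rose from 79.9 ± 2.75 to 112.2 ± 5.88 CPM (SD, n = 5 each), which is 0.49 in log2 units (adjusted p = 0.000131 from edgeR).

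The remaining subunits of succinate dehydrogenase, which links the cycle to the respiratory chain, did not pass. SDHC, the second anchor, was at 131.1 ± 7.86 and 138.2 ± 9.53 CPM, and SDHA, the flavoprotein, at 136.8 ± 17.03 and 144.7 ± 9.90 in the control and HG groups (SD, n = 5 each). The log2 ratio of SDHD to SDHC was between -0.84 and -0.63 in the control libraries and between -0.37 and -0.24 in the HG libraries, and this ratio was chosen after the values were seen and not tested. SDHB, the iron-sulfur subunit, was at 0, 593, 683, 353 and 190 counts in control replicates 1 to 5 and at 618, 494, 360, 254 and 430 in HG_1 to HG_5. With 1 library at 0 and the others between 190 and 683, the groups of SDHB overlapped widely (adjusted p = 0.829 from edgeR), and the gene was singled out after its values were seen.

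Of 13 genes that carry pyruvate into the cycle or control its entry, 7 rose (53.8%, against 15.4% of all rows tested) and 0 fell. Their median log2 fold change was 0.29. Without HG_3, 4 of the 13 were called (10.9% of all rows tested), all higher. PDHA1 and DLAT, components of the pyruvate dehydrogenase complex, rose with log2 fold changes of 0.27 and 0.35. MPC1 and MPC2, which form the mitochondrial pyruvate carrier, rose with 0.51 and 0.23. PDK1 and PDK3, kinases that inhibit the complex (0.50 and 0.50), and PDP2, a phosphatase that reactivates it (0.47), rose as well. Genes with opposite known roles towards the complex thus rose together. The adjusted p of these 7 genes was between 0.00272 and 0.0338 (edgeR).

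Exits from the cycle and shuttle genes rose in 5 of the 15 genes tested (33.3%, against 15.4% of all rows tested) and fell in 0, with a median log2 fold change of 0.12. In 13 of the 24 alternative analyses 1 or 2 genes of this list were called lower, 2 of them with DESeq2 and with the GC and length correction. PCK1, the cytosolic phosphoenolpyruvate carboxykinase, was at 0 in all 10 libraries, which allows up to 3 counts in each, and was not tested. PCK2, the mitochondrial phosphoenolpyruvate carboxykinase, which draws on oxaloacetate, was at 7.61, 9.33, 8.61, 8.11 and 8.04 CPM in control replicates 1 to 5 and at 30.0, 18.4, 21.9, 18.0 and 17.6 in HG_1 to HG_5. HG_1 was the highest of the HG libraries, all of which lay above the control group, and the rise was 1.34 in log2 units (SE 0.148, adjusted p = 0.000257 from edgeR). GOT1, the cytosolic aspartate aminotransferase that works beside MDH1 in the malate-aspartate shuttle, rose by 0.61 (adjusted p = 0.000373 from edgeR), and its mitochondrial partner GOT2 had 0.10 (95% interval -0.01 to 0.22). ACLY, which splits exported citrate in the cytosol, rose by 0.49 (adjusted p = 0.000422 from edgeR). GLUD1, glutamate dehydrogenase, and ME1, the cytosolic malic enzyme, rose by 0.21 and 0.26 (adjusted p = 0.0183 and 0.0363 from edgeR).

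Among 13 regulators and markers of mitochondrial mass, 6 rose and 1 fell (53.8% in all, against 15.4% of all rows tested). Their median log2 fold change was 0.17. Without control replicate 5, 4 of the 13 were called (11.5% of all rows tested), all higher. PPARGC1A, a coactivator of mitochondrial biogenesis, was at 17.04, 21.2, 31.7, 24.1 and 26.1 CPM in control replicates 1 to 5 and at 38.9, 49.9, 50.1, 50.1 and 47.4 in HG_1 to HG_5, without overlap. It rose by 0.98 in log2 units (SE 0.146, adjusted p = 0.00142 from edgeR). ESRRA, a nuclear receptor that works with it, rose by 0.43, and TFB1M and TFB2M, factors of the mitochondrial ribosome and of mitochondrial transcription, by 0.38 and 0.25. HSPD1, a matrix chaperone, and VDAC1, the outer membrane channel, rose by 0.17 and 0.14. NRF1, a transcription factor of mitochondrial genes, fell by 0.22 on the log2 scale (adjusted p = 0.0457 from edgeR), but this call was lost in at least 15 of the 24 alternative analyses. TFAM, which packs mitochondrial DNA, had 0.01 (95% interval -0.15 to 0.17).

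**Figure D5:**
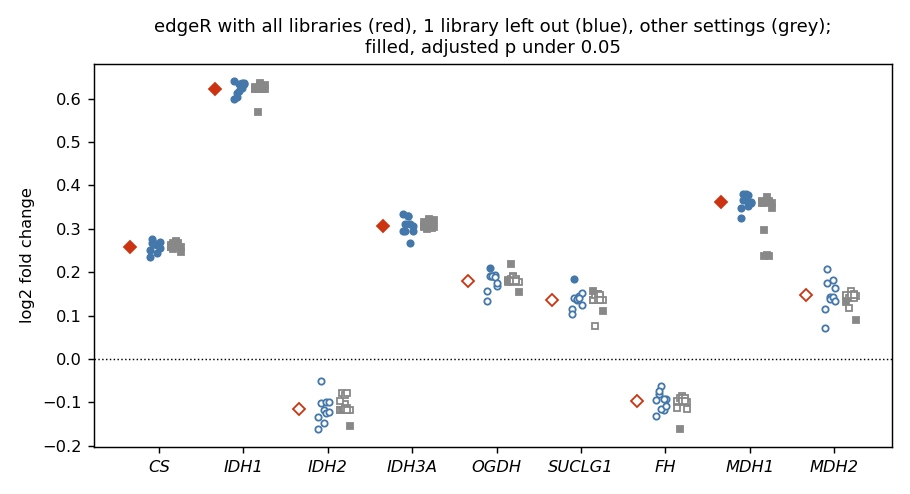
Log2 fold change (y axis) of the 9 enzyme genes with all libraries (red diamonds), with 1 library left out (blue circles) and under the other settings (grey squares), filled where the adjusted p was under 0.05. CS, IDH1, IDH3A and MDH1 stay filled throughout, with IDH1 between 0.57 and 0.64, and no gene changes sign.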

How the data were processed

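RNA of ARPE-19 cells was sequenced in 10 libraries, 5 per group as the labels give them. The authors deposited a table of read counts (whole numbers, not normalized) and a table of FPKM values (fragments scaled to transcript length and library size). The submitters' processing notes name fastp 0.20.1, HISAT2 2.2.1 and GRCh38, and the counting program and annotation are not given in the sources used here. The study describes its experiments in general as independent repeats, but neither it nor the labels say whether these libraries came from separate cultures, so p-values measure the spread between these samples, which may be technical. The 20 pairs of libraries within a group differed by more than sampling noise (chi-square per gene at least 13.8).

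Counts were compared in R 4.3.3 with edgeR 4.0.16 (default filter on low counts, TMM, quasi-likelihood test) over 14936 of 22626 rows with Benjamini-Hochberg adjustment. Each SE is the log2 fold change divided by the root of F. Alternatives were DESeq2 1.42.0, limma 3.58.1 on log2(FPKM + 1) and log2(FPKM + 0.1), 1 surrogate variable (sva 3.50.0), a GC and length correction (lowess, span 0.3), other scalings and filters, and libraries left out. Scripts were tested on simulated data. 1 gene of the cycle, 1 marker gene and 1 ratio are not reported here. The study gives a fold and p threshold for its sequencing and names an unpaired t test or ANOVA for the same set of panels, but its methods do not describe a model for the counts. Positions, overlaps and 100-base windows come from GENCODE release 29 (GRCh38), upstream sequences from RefSeq. The members and lists were chosen with earlier results of these data known. The rule for named genes took all 9 members, every gene of the other lists with an adjusted p under 0.05, and TXNIP, and any other gene was named after its values were seen. Between 1455 and 14743 counts lay behind each value of the 9 genes, so counting error was at most 2.62% of a value. Intervals for counts and limits for a count of 0 cover counting error only.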

Additional observations from a re-analysis of the deposited data

Results flagged for a closer look

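Dixon's criterion was applied to the CPM of the 9 enzyme genes and to the 2 isoenzyme ratios, which makes 22 sets of 5 libraries. It singled out an extreme library in 1 of them, and about 1.1 would be singled out by chance. IDH2 in control replicate 2 was at 59.2 CPM (59.25 unrounded), against 45.95 to 49.7 in the other control libraries. This library is one of the pair in which GC-rich genes were high relative to the mean of all libraries, and the part of that trend in this value was not tested.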

How the results depend on the processing

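Over 24 alternatives, the 9 enzyme genes kept their sign in all 216 comparisons. CS, IDH1, IDH3A and MDH1 passed an adjusted p of 0.05 in every one, and 14 values of the other 5 genes passed where they had not with all libraries (6 of OGDH, 3 of SUCLG1, 2 each of IDH2 and MDH2, 1 of FH). The log2 fold change of MDH1 was least, at 0.24, with limma on log2(FPKM + 1), adjusted p = 0.0353. The 4 genes called became 8 with 1 surrogate variable (7 higher and 1 lower), 7 without HG_1 and control replicate 2 (all higher) and 7 with the GC and length correction (5 higher and 2 lower), and the 2303 genes and loci called in all became 4923, 4035 and 3965. Without that correction the same rows gave 4 and 2358, a check chosen after seeing the data. With 1 library left out the counts were 4 to 6 and 1648 to 2993. The cause of these increases was not tested. Without HG_3 the calls fell from 7 to 4 among pyruvate genes and from 5 to 3 among exits and shuttles. Without control replicate 5 the calls among regulators of mitochondrial mass fell from 7 to 4. Without HG_1 the calls among further cycle genes rose from 2 to 4. Of all rows tested, 10.9%, 11.5% and 19.9% were called in these fits in the order given, against 15.4% with all libraries. Under other settings the calls were 4 among pyruvate genes with limma on log2(FPKM + 1) or log2(FPKM + 0.1). Among exits and shuttles they were 9 (7 higher) with the GC and length correction and 8 (6 higher) with DESeq2, 1 surrogate variable or without the pair. Among further cycle genes they were 4 with DESeq2, 5 without the pair or with the GC and length correction, 6 with 1 surrogate variable and 1 with limma at mean FPKM at least 1. These counts stand beside 19.9% of all rows called with DESeq2, 10.5%, 10.3% and 15.9% with limma in the order named, 33.0% with 1 surrogate variable, 27.1% without the pair and 29.3% with the GC and length correction, against 15.4% with all libraries. The IDH1 to IDH2 difference was between 0.67 and 0.80 with 1 library left out and passed throughout. MDH1 to MDH2 was 0.235 without the pair and 0.184 corrected (exact permutation tests, adjusted p = 0.0286 and 0.00794), but 0.096 in FPKM (adjusted p = 0.452), and 0.177 to 0.274 with 1 library left out. No paired analysis was made because the labels give the 2 groups no shared replicate numbers, and nothing ties the numbers in the column names to a shared batch or day.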
